A study of Homo sapiens with 3 samples.

Results

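The transcripts of 10 genes that act upstream of the transcription factor ATF4 in the integrated stress response were examined in Molm13 cells exposed to pyrvinium. They were selected by their place in the pathway, with earlier results of these libraries known, and are listed by Entrez identifier among the 25702 genes of the deposited tables. They comprise the 4 kinases of eIF2α (EIF2AK1, EIF2AK2, EIF2AK3 and EIF2AK4), eIF2α itself (EIF2S1), its constitutive phosphatase subunit (PPP1R15B), the GCN2 regulators GCN1L1 and IMPACT, and the mitochondrial relay formed by OMA1 and KIAA0141. KIAA0141 is the older symbol of DELE1 and GCN1L1 that of GCN1. All 10 passed the filter on low values (10 counts or more in any of the libraries) and so were among the 12879 genes tested here.

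Molm13 is an established human acute myeloid leukemia line that carries an internal tandem duplication of FLT3, a receptor tyrosine kinase, and it was grown asynchronously in RPMI medium with fetal bovine serum. For 6 h the cells received pyrvinium, at 50 nM or at 100 nM, or the vehicle DMSO alone, and there was 1 library for each, so that no difference has a replicate check. Pyrvinium is an anthelmintic drug that gathers in mitochondria. The 3 libraries held 22677038 to 24075123 counts, and 9 of 10 myeloid leukemia markers had a level above 1 TPM, a length-corrected level explained further on, in the DMSO library. The exception was CD14, with at most 2 counts in any library. Of 15 markers of T cells, B cells, erythroid cells, epithelial cells and fibroblasts, none exceeded 26 counts in any library and 1 was above 1 TPM in DMSO.

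The integrated stress response turns different stresses into 1 signal, the phosphorylation of eIF2α. HRI, encoded by EIF2AK1, responds to a shortage of heme, PKR (EIF2AK2) to double-stranded RNA, PERK (EIF2AK3) to unfolded protein in the endoplasmic reticulum, and GCN2 (EIF2AK4) to uncharged tRNA and stalled ribosomes. Phosphorylated eIF2α lowers general protein synthesis and favors the translation of ATF4. When mitochondria are stressed, the inner membrane protease OMA1 cleaves DELE1, whose fragment gathers in the cytosol and activates HRI. These steps act on proteins, and the libraries measure RNA only.

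Of the 10 genes, those with the largest changes at 100 nM against DMSO were OMA1, IMPACT and KIAA0141, and for these 3 the 120 bases before the annotated transcription start are shown, read 5′ to 3′ on the strand of the gene from RefSeq sequences on GRCh38.p14. They lie at chr18:24426550-24426669 on the plus strand for IMPACT, chr1:58546727-58546846 on the minus strand for OMA1 and chr5:141923751-141923870 on the plus strand for KIAA0141. Capitals mark 3 textbook promoter motifs on either strand, the GC box (GGGCGG), the CCAAT box (CCAAT) and an ETS motif (CCGGAA). They do not overlap in these stretches and were chosen after the sequences were seen. Shorter forms of the ETS motif, such as GGAA, were not marked.
IMPACT: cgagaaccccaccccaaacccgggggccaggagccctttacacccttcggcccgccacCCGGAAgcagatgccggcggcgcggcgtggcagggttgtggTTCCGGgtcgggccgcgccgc
OMA1: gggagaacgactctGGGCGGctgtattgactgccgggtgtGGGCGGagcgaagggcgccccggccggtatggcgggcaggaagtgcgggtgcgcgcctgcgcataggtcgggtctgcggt
KIAA0141: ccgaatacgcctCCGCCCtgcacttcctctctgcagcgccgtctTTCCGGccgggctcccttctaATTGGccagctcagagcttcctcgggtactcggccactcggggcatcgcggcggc

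IMPACT held the ETS motif on each strand, OMA1 held the GC box at 2 positions, and KIAA0141 held each of the 3 motifs once. None of the 3 sequences as spelled above was found in all 3 stretches, and variants of these motifs were not searched. Of 14005 windows of the same length before the starts of genes tested, 51.9% held the GC box, 22.5% the CCAAT box and 16.5% the ETS motif. The G and C content was 75% for IMPACT, 71.7% for OMA1 and 67.5% for KIAA0141, beside a median of 67.5% over those windows.

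The core of the C/EBP-ATF response element (TGATGNAA), the sequence at which ATF4 with a C/EBP partner binds, was searched on both strands in the whole promoter windows, which run from 250 bases before a start to 50 bases after it. A window was given for 9 of the 10 genes, all but EIF2AK1. PPP1R15B alone of the 9 held the core, 227 bases before its start, in the stretch at chr1:204412011-204412067 on the minus strand (GRCh38.p14), where capitals mark the match.
PPP1R15B: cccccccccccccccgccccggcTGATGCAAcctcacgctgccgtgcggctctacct

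The core was present in 3.62% of all 35116 windows of the promoter table, in 1.93% of the 14005 windows of genes tested and in 4 of 23 windows of ATF4 and its targets. The core of the XBP1 unfolded protein response element (TGACGTGG) was found in none of the 9 windows and in 0.857% of those of genes tested. These matches describe the letters in the windows and are not binding sites.

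Per length, eIF2α and HRI transcripts stood highest of the 10 and those of PERK and PKR lowest. Levels in this and the next paragraph are TPM, the counts per exon length scaled to the same sum in each library, with 95% exact Poisson intervals that cover counting error only. In the DMSO library the level was 97.9 TPM for EIF2S1 (95.2 to 101), 80.5 for EIF2AK1 (78.2 to 83.0) and 66.3 for GCN1L1 (64.7 to 67.9). GCN1L1 encodes the large ribosome-bound protein that GCN2 needs for its activation. PPP1R15B followed with 35.1 TPM, then IMPACT with 31.8, KIAA0141 with 22.3, EIF2AK4 with 19.1 and OMA1 with 17.1. EIF2AK3 and EIF2AK2 had 6.85 and 6.84 TPM. Of neighbors in this order, only EIF2AK4 and OMA1, and EIF2AK3 and EIF2AK2, had counting intervals that overlapped. Among the genes tested, the level of EIF2AK1 exceeded that of 84.2% and the level of EIF2AK2 that of 30.9%.

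The order shifted at 50 nM and 100 nM through the genes that rose. IMPACT moved above PPP1R15B, with 41.4 against 36.7 TPM at 50 nM and 46.6 against 39.0 at 100 nM. OMA1 moved above EIF2AK4, with 23.8 against 18.7 TPM at 50 nM and 25.7 against 17.2 at 100 nM. In each of these 4 pairs the counting intervals did not overlap. The counting intervals of OMA1 and KIAA0141 lay apart in DMSO and overlapped at 100 nM. At 100 nM the levels were 25.7 and 28.4 TPM, with intervals of 23.7 to 27.9 and 27.1 to 29.8. Their difference was not tested.

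HRI made up most of the kinase transcripts in each library. Of the summed level of the 4 kinases, 113 TPM in DMSO, 112 at 50 nM and 109 at 100 nM, EIF2AK1 took 71.1%, 71.5% and 70.9%. EIF2AK4 took 16.8%, 16.7% and 15.8% in the same order. EIF2AK3 took 6.05%, 6.76% and 7.26%, and EIF2AK2 took 6.04%, 5.05% and 6.05%. The order of the kinases by share was the same in each library. The counting intervals of EIF2AK3 and EIF2AK2 overlapped in DMSO and at 100 nM, and their difference was not tested.

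To compare the libraries, counts were scaled by edgeR's TMM sizes, and a gene was called on 2 criteria, a p of no more than 0.05 in an exact binomial test of its reads in 2 libraries, adjusted over all genes tested by the Benjamini-Hochberg method, and a fold change that reached a threshold. What is compared are the libraries and not the conditions. The study's threshold of 2-fold and a lower threshold, a log2 fold change of 0.32 in either direction, were used. At 2-fold, 0 of the 10 genes were called between 100 nM and DMSO, where 2.19% of all genes were called. Between 50 nM and DMSO 0 of the 10 were called, beside 0.932% of all genes, and between 100 nM and 50 nM 0 of the 10, beside 0.497%. The counting intervals of the 10 genes reached at most 0.75 upward and -0.57 downward on the log2 scale in any of these comparisons, so that each interval excluded a 2-fold difference between the libraries.

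At the lower threshold, 2 of the 10 genes, OMA1 and IMPACT, were called higher at 100 nM than in DMSO, beside 10.2% of all genes, and 0 were called lower, beside 8.3%. The same genes were called higher at 50 nM, beside 4.42% of all genes, and 0 were called lower, beside 3.97%. Between 100 nM and 50 nM 0 were called in either direction, beside 1.9% of all genes higher and 1.13% lower. With 10 genes, a share of 2 in 10 is set by 2 genes. The median log2 fold change of the 10 was 0.10 at 100 nM and 0.07 at 50 nM, beside -0.0041 and -0.0047 over all genes tested. The 2 comparisons with DMSO share that library, so that a departure of the DMSO library alone would appear in both.

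**Figure D1:**
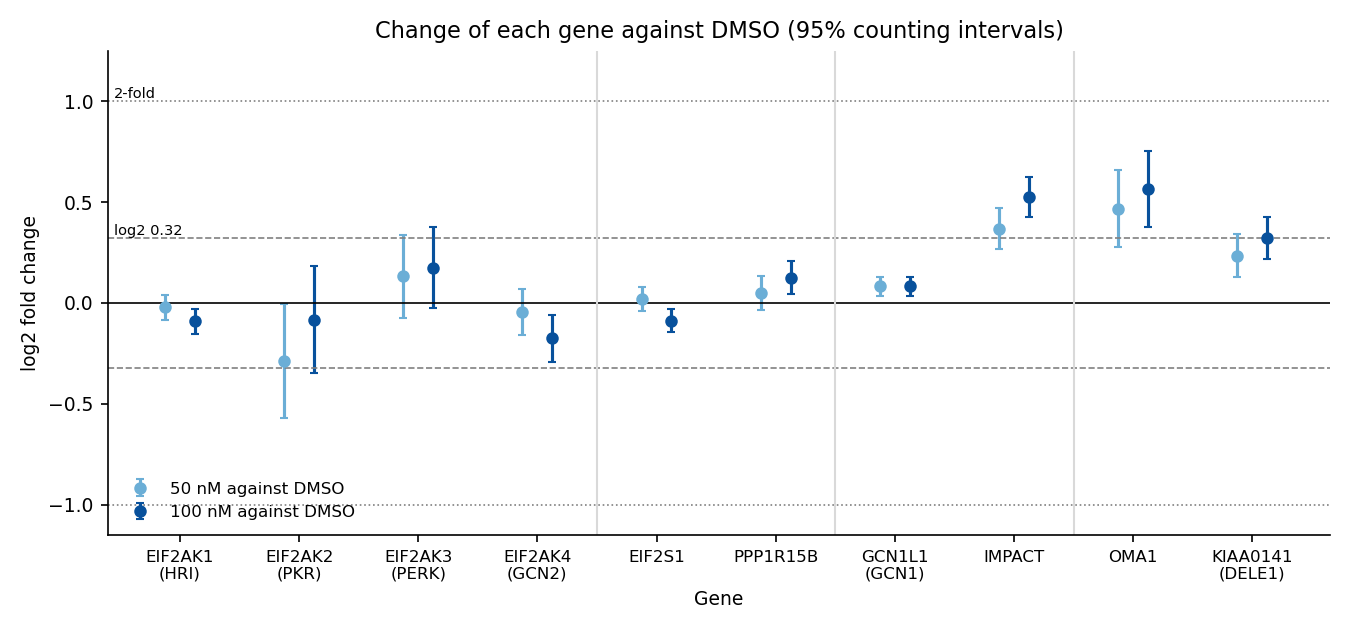
Log2 fold change of each of the 10 genes at 50 nM and at 100 nM against DMSO (vertical axis), with 95% Clopper-Pearson counting intervals as bars and dashed and dotted lines at a log2 fold change of 0.32 and at 2-fold. IMPACT and OMA1 lie above the dashed line at both doses, KIAA0141 lies just under it at 100 nM, and the 4 kinases lie between -0.29 and 0.18.

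None of the 4 kinase genes was called in any comparison. In either direction at the lower threshold, 18.5% of all genes were called at 100 nM against DMSO. The share was 8.39% at 50 nM against DMSO and 3.03% between 100 nM and 50 nM. EIF2AK1 (Entrez 27102, 15 exon intervals on the minus strand of chromosome 7 of hg19, 6061878 to 6098860) had 4290, 4145 and 4194 counts in the DMSO, 50 nM and 100 nM libraries. Its log2 fold change was -0.02 at 50 nM, with a 95% Clopper-Pearson interval from -0.08 to 0.04, and -0.09 at 100 nM (-0.15 to -0.03). The HRI transcript was thus lower at 100 nM by an amount past counting error but small, 0.939 of its DMSO level. Of its 4465 exon bases, 532 overlap exons of AIMP2 on the opposite strand, and the counts of AIMP2 were 1678, 1894 and 2027 in the DMSO, 50 nM and 100 nM libraries. The libraries kept the strand, but whether the counting used it is not stated. The effect of this overlap, in either direction, on the level, share and changes of EIF2AK1 was not tested.

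EIF2AK4 (Entrez 440275, chromosome 15 of hg19, 40226347 to 40327797), the gene of GCN2, had 1253, 1191 and 1156 counts in the DMSO, 50 nM and 100 nM libraries. The log2 fold change was -0.04 at 50 nM (-0.16 to 0.07) and -0.17 at 100 nM (-0.29 to -0.06). It was the lowest value of the 10 genes at 100 nM and placed EIF2AK4 above 26.1% of all genes tested.

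EIF2AK3 (Entrez 9451, chromosome 2 of hg19, 88856259 to 88927094), the gene of PERK, had 380, 408 and 447 counts in the DMSO, 50 nM and 100 nM libraries. Its log2 fold change was 0.13 at 50 nM (-0.07 to 0.34) and 0.18 at 100 nM (-0.03 to 0.38). Each interval included 0, and the one at 100 nM reached up to 0.38. EIF2AK2 (Entrez 5610, chromosome 2 of hg19, 37333699 to 37384190), the gene of PKR, had 239, 192 and 235 counts in the DMSO, 50 nM and 100 nM libraries. The log2 fold change was -0.29 at 50 nM (-0.57 to -0.01) and -0.08 at 100 nM (-0.35 to 0.18). The 50 nM library was the lowest for this kinase and the DMSO and 100 nM libraries lay close together. At 50 nM the adjusted p of the exact binomial test was 0.123, so the dip was not called.

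The transcript of the kinases' substrate differed little between the libraries. EIF2S1 (Entrez 1965, chromosome 14 of hg19, 67827034 to 67853233) had 4865, 4831 and 4768 counts in the DMSO, 50 nM and 100 nM libraries, with log2 fold changes of 0.02 (-0.04 to 0.08) and -0.09 (-0.15 to -0.03). PPP1R15B (Entrez 84919, chromosome 1 of hg19, 204372492 to 204380944) encodes CReP, which keeps eIF2α dephosphorylated in unstressed cells. It had 2210, 2243 and 2511 counts in the DMSO, 50 nM and 100 nM libraries, and its log2 fold change was 0.05 (-0.04 to 0.14) at 50 nM and 0.13 (0.04 to 0.21) at 100 nM. At 100 nM the intervals of these 2 genes lay apart, the substrate slightly below DMSO and the phosphatase subunit slightly above it, and neither was called.

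The GCN2 regulators differed from each other. IMPACT (Entrez 55364, chromosome 18 of hg19, 22006609 to 22033495), which competes with GCN2 for GCN1 and thereby restrains it, had 1425, 1802 and 2135 counts in the DMSO, 50 nM and 100 nM libraries. Its log2 fold change was 0.37 at 50 nM (0.27 to 0.47) and 0.52 at 100 nM (0.43 to 0.62), 1.29-fold and 1.44-fold. The 100 nM library also exceeded the 50 nM library, by a log2 fold change of 0.16 (0.07 to 0.25), under the lower threshold. GCN1L1 (Entrez 10985, chromosome 12 of hg19, 120565014 to 120632513) had 6852, 7110 and 7559 counts in the DMSO, 50 nM and 100 nM libraries. Its log2 fold change was 0.08 at each dose, with intervals from 0.03 to 0.13 at 50 nM and from 0.04 to 0.13 at 100 nM. The interval of IMPACT at 100 nM lay above those of 8 of the other 9 genes, all but OMA1, and that of GCN1L1 lay below it.

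Each gene of the mitochondrial relay was higher in the pyrvinium libraries. OMA1 (Entrez 115209, chromosome 1 of hg19, 58946391 to 59012446) had 389, 527 and 599 counts in the DMSO, 50 nM and 100 nM libraries. Its log2 fold change was 0.47 at 50 nM (0.28 to 0.66) and 0.56 at 100 nM (0.38 to 0.75), 1.38-fold and 1.48-fold, the largest value of the 10 genes at each dose. Between 100 nM and 50 nM the difference was 0.10 with an interval from -0.07 to 0.27, so that a further increase was not detectable at this depth. Among all genes tested, 91.8% had a lower log2 fold change than OMA1 at 100 nM and 91% a lower one than IMPACT.

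KIAA0141 (Entrez 9812, chromosome 5 of hg19, 141303385 to 141321612), the gene of DELE1, had 1320, 1522 and 1717 counts in the DMSO, 50 nM and 100 nM libraries. The log2 fold change was 0.23 at 50 nM (0.13 to 0.34) and 0.32 at 100 nM (0.22 to 0.43). At 100 nM its unrounded value of 0.3205 lay just under the lower threshold of 0.3219, so that it was not called, and its adjusted p from the exact binomial test was 1.1e-08. With libraries scaled by total counts its value was 0.3237 and it was called. The interval of KIAA0141 at 100 nM lay above those of EIF2AK1, EIF2AK2 and EIF2AK4, and that of OMA1 lay above those of all 4 kinases, although the bounds of OMA1 and EIF2AK3 that face each other both round to 0.377. The transcript of HRI, the kinase that the relay acts on, did not share the increase of OMA1, since its interval at 100 nM lay below 0.

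The 50 nM value lay between those of DMSO and 100 nM for 8 of the 10 genes, all but EIF2AK2 and EIF2S1. The share of all genes tested with this order was not computed, so the count does not set the 10 genes apart. A linear trend over 0, 50 and 100 nM, tested with edgeR's quasi-likelihood test with 1 residual degree of freedom, passed an adjusted p of 0.05 for 3 of the 10 genes, beside 20.6% of all genes. The 3 were IMPACT (adjusted p 0.000208), OMA1 (0.0042) and KIAA0141 (0.00926), with fitted log2 slopes over 100 nM of 0.52, 0.55 and 0.32. The residual in this fit is the departure of the 3 libraries from a line and not the spread between replicates. Assuming a biological coefficient of variation of 0.1 between replicates, which these libraries cannot give, edgeR's exact test called 0 of the 10 genes at the lower threshold, and at an unadjusted p of at most 0.05 it gave OMA1 and IMPACT at 100 nM, where 1447 of the 12879 genes passed the same rule and 248 were called after adjustment.

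Genes that work beside the 10 were taken from 7 lists of 65 genes, of which 64 were tested. At 100 nM 6 of the 64 were called higher at the lower threshold and 4 lower, beside 10.2% and 8.3% of all genes, and their median log2 fold change was -0.04. Among 12 partners of eIF2α in initiation, EIF2S2, the β subunit of eIF2, had 4166, 4942 and 5660 counts with rising dose, and rose by a log2 fold change of 0.38 at 100 nM (0.33 to 0.44). EIF2B4, a subunit of the exchange factor eIF2B that phosphorylated eIF2α inhibits, fell from 1178 counts to 908 and 907, a log2 fold change of -0.44 (-0.56 to -0.31). The other 4 eIF2B subunits lay between -0.17 and 0.08, and the third eIF2 subunit, EIF2S3, was at 0.01. EIF2S3 encodes the γ subunit, and at 100 nM the interval of the β subunit lay above those of γ and of EIF2S1, the α subunit.

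Of 5 phosphatase partners, PPP1R15A, the stress-inducible counterpart of PPP1R15B known as GADD34, rose from 838 counts in DMSO to 938 and 1134, a log2 fold change of 0.38 at 100 nM (0.25 to 0.51). Its interval lay above that of PPP1R15B. The lowest of the 5 was PPP1CC, a catalytic subunit, at -0.08 (-0.12 to -0.04).

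On the PERK side, HSPA5, the chaperone BiP that binds PERK in unstressed cells, fell from 18101 counts to 11928 and 10090, a log2 fold change of -0.90 at 100 nM, the lowest of its 8 genes. ERN1, which encodes the parallel sensor IRE1, rose from 126 counts to 138 and 180, a log2 fold change of 0.45 with a wide interval from 0.12 to 0.80. ATF6, the remaining sensor, was at -0.02 (-0.14 to 0.10). Of the 3 sensors PERK, IRE1 and ATF6, only ERN1 was called. At 100 nM the interval of ERN1 lay above that of ATF6. The interval of EIF2AK3, the gene of PERK, ran from -0.03 to 0.38 and overlapped both.

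None of 7 PKR regulators and none of 10 genes of the ribosomal P-stalk and stalled ribosomes, which feed GCN2, was called at 100 nM. Of all genes, 18.5% were called there in either direction at the lower threshold. In the first list the values ran from -0.17 for DUS2 to 0.25 for PRKRA, the gene of the PKR activator PACT. In the other they ran from -0.25 for GTPBP2, a ribosome rescue factor, to 0.17 for RPLP0, a P-stalk protein.

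On the HRI side, 9 of 10 genes of heme synthesis and breakdown were tested. At 100 nM 3 of the 9 were called higher at the lower threshold and 1 lower, beside 10.2% and 8.3% of all genes. ALAS1, the rate-limiting enzyme of heme synthesis, rose from 1455 counts to 1490 and 1936, a log2 fold change of 0.35 at 100 nM (0.25 to 0.45). UROS, which acts in the middle of the pathway, rose by a log2 fold change of 0.37 (0.23 to 0.50). HMOX2, the constitutive heme oxygenase, fell from 1858 counts to 1573 and 1395, a log2 fold change of -0.47 (-0.57 to -0.37). The last enzyme, FECH, had -0.29 and was not called, and the inducible oxygenase HMOX1 had at most 6 counts in a library and was not tested. The median of the 9 was -0.09, below 0, although more of them were called higher than lower.

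On the OMA1 side, 13 genes of inner membrane proteases, scaffolds and substrates had a median of -0.07 at 100 nM, beside -0.0041 over all genes tested. Of the 13, 11 were below 0, and the share of all genes below 0 was not computed. CHCHD10, a small protein of the intermembrane space, fell from 887 counts to 733 and 581, a log2 fold change of -0.67 (-0.82 to -0.52). Beside 8.3% of all genes called lower, it was the only one of the 13 that was called. The highest was OPA1, the fusion protein that OMA1 cleaves under stress, at 0.10 (0.04 to 0.16). YME1L1, the protease that works beside OMA1 on OPA1, had -0.07. The OMA1 interval at 100 nM, from 0.38 upward, lay above the values of all 13.

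Downstream of eIF2α the changes were larger. Of 15 genes, ATF4 and its known targets, 14 were tested. At 100 nM all 14 were called higher at the lower threshold, beside 10.2% of all genes. At 2-fold 9 were called higher, beside 1.72% of all genes. The median log2 fold change of the 14 was 1.10, beside -0.0041 over all genes tested. The list includes genes that the study drew from these libraries and is not independent evidence of its direction. The smallest value was 0.41 for CEBPG and the largest 2.05 for CHAC1. ATF4, at 0.49, DDIT3, at 1.02, TRIB3, at 1.18, and ASNS, at 1.38, lay among them. Of the 10 genes upstream of ATF4, OMA1 and IMPACT lay within the range of this list and the other 8 below it.

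The genes with a pattern most like that of EIF2AK1 over the 3 libraries, by the Euclidean distance of the log2 fold changes at 50 nM and 100 nM, were TNFRSF8, POLR3F and TIMM29, at distances of 0.0011, 0.0013 and 0.0021. Of 9786 other genes whose counts reached 100 in every library, 1942 (19.8%) lay within 0.1 of EIF2AK1. With 3 libraries the likeness therefore does not set the 3 named genes apart from many others.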

How the data were processed

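RNA was sequenced from 3 strand-specific mRNA libraries of Molm13 cells. The authors used Rsubread for alignment to hg19, and the deposited values are raw counts, whole numbers for each Entrez gene without normalization. The software version, the use of strand and the treatment of reads with several matches are not given in the sources used here. The deposited EBSeq table holds posterior probabilities, fold changes and means from the authors' own comparisons and was not used.

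Symbols came from RefSeq. Library sizes were scaled with TMM (edgeR 4.0.16, R 4.3.3). The exact binomial test and the Clopper-Pearson intervals (scipy 1.17.1) cover counting error only, and reads are not independent molecules. Log2 fold changes had 0.5 counts added. TPM were computed here from the counts and the exon lengths of the tables. All genes were fitted together. The procedure was tested on simulated counts that held counting error only, so this test does not cover spread between replicates.

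The 10 genes, the other lists and thresholds were chosen with earlier results of these data known. The genes named are the 10, the genes of each list called at the lower threshold at 100 nM, the extremes of each list among genes with at least 100 counts in DMSO, ATF4, DDIT3, TRIB3, ASNS, PPP1R15A and the genes most like EIF2AK1. Any other gene named was chosen with its values in view. The values of 1 gene called in these lists are not reported here.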

Additional observations from a re-analysis of the deposited data

How the results depend on the processing

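With DESeq2 1.42.0 size factors or TMM without mitochondrially encoded genes, the number of the 10 genes called did not change at either fold threshold in any comparison. With total counts, 3 in place of 2 were called at the lower threshold at 100 nM against DMSO, since KIAA0141 moved to 0.3237, and the other numbers did not change. The log2 fold changes moved by at most 0.0032 under these scalings and by at most 0.0059 with 5 counts added. Count filters of at least 1 or at least 50 counts gave the same numbers. When edgeR's exact test was given a biological coefficient of variation of 0.1 or of 0.2, 0 genes in place of 2 were called at the lower threshold at 100 nM against DMSO, and 0 in place of 2 at 50 nM. At an unadjusted p of at most 0.05 the setting of 0.1 gave 2 of the 10 at 100 nM, beside 1447 of 12879 genes, and 1 at 50 nM, beside 585, and the setting of 0.2 gave 0 at each dose. The number of all genes called at the lower threshold at 100 nM was 2387 with the binomial test, 248 with 0.1 and 12 with 0.2, and at 2-fold it was 282, 138 and 12. These settings change the test as well as the assumed spread, and the cause of the drop from the binomial count was not tested. The linear dose trend (quasi-likelihood), which has no fold threshold, passed 3 of the 10 genes where 0 were called at 2-fold. Depth limits EIF2AK2 most, where a log2 difference of about 0.27 is the counting error, and GCN1L1 least, at 0.047. No paired analysis was possible because each condition has 1 library.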
